A study of Homo sapiens with 6 samples.

Results

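Macroautophagy is the route by which cells enclose cytoplasm in a double membrane, the autophagosome, and deliver it to the lysosome for breakdown. The ULK kinase complex starts the process, a class III PI3-kinase complex marks the growing membrane with a phosphoinositide, and a pair of ubiquitin-like conjugation systems attach ATG8 proteins (LC3 and GABARAP) to it. Receptors tether cargo to those proteins, and the HOPS complex and the SNARE STX17 join the finished autophagosome to the lysosome. Tumor cells depend on the route to differing degrees for survival under stress.

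The 50 autophagy genes described here were a list of gene symbols covering each of those steps. The rule of membership uses no measured value, although the list was drawn up with earlier results of these data known. All 50 were matched by symbol in GENCODE release 44, out of 34834 genes with a transcript in the files, and 35 of them passed the filter on low counts, as 11814 genes did in all. The data were RNA sequencing profiles of SKOV3, a human ovarian cancer cell line. In 3 samples the cells were transfected with 50 nM of a pool of siRNA against the long non-coding RNA DNM3OS, and in 3 with 50 nM of a pool of non-targeting siRNA, with a lipid reagent for all 6 samples and RNA profiled at 48 h. Nothing in the labels says that the 3 samples of a group came from separate transfections, so p-values here measure the spread between these samples, which may be technical.

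Gene totals were low, between 1523046 and 1868325 estimated counts per sample. On those totals 3 counts corresponded to between 1.606 and 1.97 CPM, the counts scaled to a common library total. The CPM values below use totals further adjusted between samples by TMM normalization. On that scale 3 counts were 1.4 CPM in knockdown replicate 1 (ATG101) and 2.11 CPM in knockdown replicate 3 (ULK3). Genes with ribosomal protein symbols, 86 in all, held 0.232%, 0.384% and 0.397% of the gene counts with the knockdown and 0.543%, 0.320% and 0.524% in controls, while PLLP alone held between 15.7% and 22.2%. GAPDH had 27, 186 and 179 estimated counts with the knockdown and 414, 101 and 289 in controls. EEF1A1 had 144, 528 and 470 against 1340, 320 and 924, also with overlap. ACTB had 36, 75 and 66 against 112, 96 and 181, fewer in every knockdown sample than in any control. Knockdown replicate 1 had the fewest counts of all samples for each of these genes. Genes with exon bases opposite an exon of another gene were 23.6% of genes and held between 63.1% and 69.0% of the gene counts. The libraries were made with a stranded kit, and whether reads were assigned to the strand opposite their origin was not tested. A value below is therefore the count given to a gene's transcripts, which may not be its sense mRNA alone. None of the 6 DNM3OS transcripts of the annotation was matched in the files (0 matched), so the depth of the knockdown is not measured by these values. Of the epithelial markers, KRT8 had between 1195 and 2566 counts, but 99.7% of them lay on transcripts with bases opposite another gene, KRT18. ERBB2 had between 311 and 872, KRT18 between 38 and 165 and KRT19 between 19 and 184. PAX8 had between 26 and 46 and KRT7 between 4 and 12, while WT1 had at most 4 and MUC16 at most 2. CD14 and VWF, which mark monocytes and endothelium, had at most 1 count in any sample, whereas PTPRC, a leukocyte marker, had between 91 and 148.

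The members' counts were concentrated on few genes and few transcripts. ATG7, the E1-like enzyme of both conjugation systems, and ATG10, the E2-like enzyme that joins ATG12 to ATG5, held 55.9% of the counts of the 50 genes. Only 6 members averaged more than 100 counts per sample and 36 averaged fewer than 50. The most counted ATG10 transcript, ENST00000514253, has no defined coding sequence, and it held 93.2% of the counts of the gene. It spans 904 bases in 3 exons on the plus strand of chromosome 5 of GRCh38, and its last exon, from 82276145 to 82276857, runs opposite RPS23, a ribosomal protein gene on the minus strand. Of its bases, 374 lie opposite RPS23 exons and 232 opposite the coding sequence of transcript RPS23-201. The longest coding stretch is shown because it is where the transcript that carries ATG10's counts and a ribosomal protein mRNA are complementary. It is given from the GRCh38 reference at chr5:82276378-82276538, on the plus strand as in ENST00000514253, with the 121 bases opposite the RPS23 coding exon in capitals and 20 bases on each side in lower case.
ENST00000514253: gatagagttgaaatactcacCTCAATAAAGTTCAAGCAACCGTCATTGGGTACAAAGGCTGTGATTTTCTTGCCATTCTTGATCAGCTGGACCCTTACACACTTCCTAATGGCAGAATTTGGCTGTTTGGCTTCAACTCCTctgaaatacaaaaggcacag

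ENST00000514253 held 665, 947 and 876 estimated counts with the knockdown and 850, 873 and 936.2 in controls. RPS23 itself held 100, 81 and 72 counts in the knockdown and 124, 88 and 83 in the controls, fewer than ENST00000514253 in every sample. The summed protein-coding transcripts of ATG10 held 97, 57 and 56 counts against 44, 59 and 51, and the groups overlapped.

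ATG7 differed from ATG10 in where its counts lay. Its most counted transcript was a retained intron of 951 bases (ENST00000460291) with 61.8% of the counts of the gene and 0 bases opposite an annotated exon, at 824.4, 692.7 and 1027 counts in the knockdown and 937.4, 664.6 and 960.3 in the controls. Nearly all the rest lay on a coding transcript of 4959 bases (ENST00000354449), of which 1597 lie opposite exons of VGLL4. PINK1, the kinase that marks damaged mitochondria for mitophagy, had all of its counts (100%) on transcripts with bases opposite PINK1-AS. ATG14, BECN1 and ATG4D had 100%, 98.0% and 97.2% of their counts on transcripts with bases opposite another gene (FBXO34, mainly CNTD1, and KRI1 for their most counted transcripts). PIK3C3, CALCOCO2 and RB1CC1 had 0%.

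Across the 50 genes, 22 have exon bases opposite another gene and 28 have none, and the median gene in the former averaged 53.8 counts per sample against 13.1 in the latter. Among all genes with at least 1 count the same medians were 28.2 and 6.5, so the difference was not particular to autophagy genes. Of the 571 member transcripts in the files, 106 (18.6%) have bases opposite another gene, and they held 53.0% of the members' counts, or 43.8% without ATG7 and ATG10. Protein-coding transcripts held 31.6% of the members' counts, retained introns 33.7%, transcripts without a defined coding sequence 30.6% and substrates of nonsense-mediated decay 4.2%. The protein-coding share was between 29.1% and 30.8% in the knockdown libraries and reached 36.3% in the controls, and the groups overlapped.

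**Figure D1:**
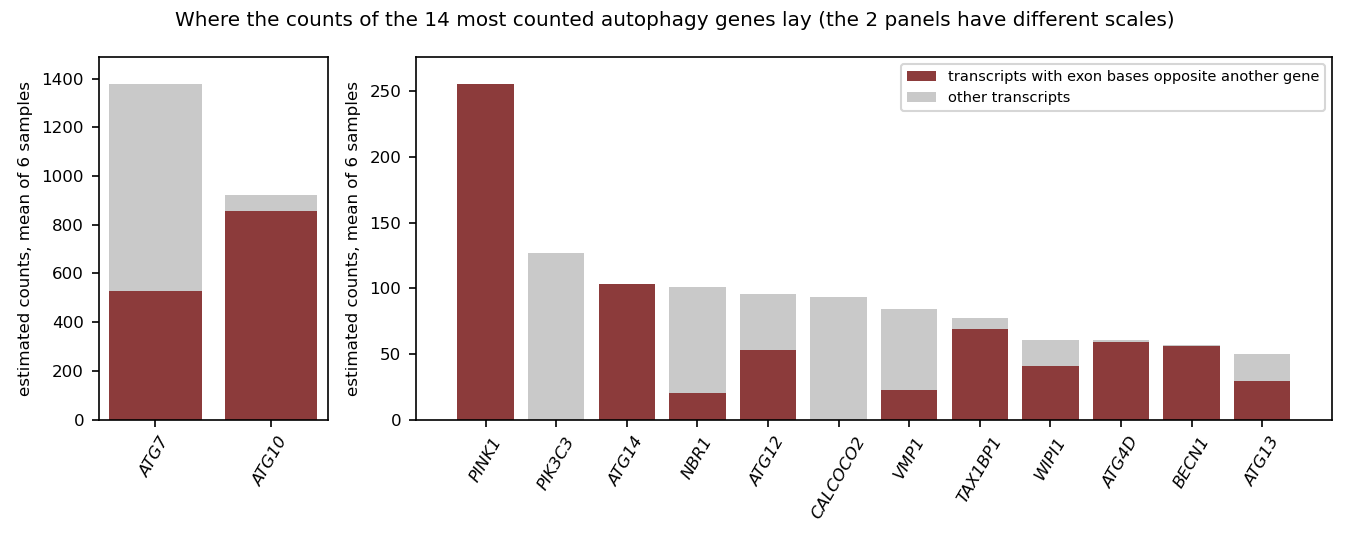
Mean estimated counts over the 6 samples (vertical axis) for the 14 most counted autophagy genes, with counts on transcripts that have exon bases opposite another gene in dark red and counts on other transcripts in grey. ATG7 and ATG10 are in the left panel on a larger scale, and the counts of PIK3C3 and CALCOCO2 are all in grey.

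TPM values, which scale counts by transcript length and library total, gave an order of levels that differed from the order by counts. ATG10 averaged 1029 TPM over the 6 samples (range 702.3 to 1181) and ATG7 averaged 1004 TPM (819 to 1308), so their ranges overlapped. VMP1, an endoplasmic reticulum protein needed for autophagosome formation, followed with 249.3 TPM (115.6 to 322.1) and CALCOCO2, a receptor for bacteria and mitochondria, with 163.8 TPM (119.5 to 212.1), again overlapping. The lowest samples of ATG7 and ATG10 lay above the highest of VMP1. PINK1 averaged 105.7 TPM and ATG13 averaged 95.9 TPM. By counts PINK1 was above VMP1, at 255.8 against 84.2 per sample. A VMP1 transcript of 231 bases (ENST00000588915) held 23.3% of the VMP1 counts, and a short transcript gives more TPM per count. At the other end were GABARAPL1 at 0.727 TPM, the protease ATG4C at 0.754 TPM and the mitophagy receptor FUNDC1 at 0.909 TPM. The median member had 17.7 TPM.

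No autophagy gene passed the threshold of an adjusted p below 0.05 with at least a 2-fold change. In edgeR's exact test on all 11814 tested genes, 0 of the 35 tested members were lower and 0 were higher in the DNM3OS knockdown, beside 0.00846% of tested genes called lower and 0.0% called higher. At an unadjusted p below 0.05 the exact test, edgeR's quasi-likelihood test and DESeq2 each counted 1 member, RB1CC1, and the exact test counted 2.92% of tested genes. The median log2 fold change of the tested members was 0.007, against 0.004 over all tested genes, with 17 members below 0 and 18 above. Every knockdown sample was below every control for 2 members, RB1CC1 and ULK2, a share of the 35 to be read against 3.56% of tested genes, and above every control for 1, WIPI2, against 4.42%. In these bulk samples, fewer cells with a transcript and less of it per cell cannot be told apart.

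**Figure D2:**
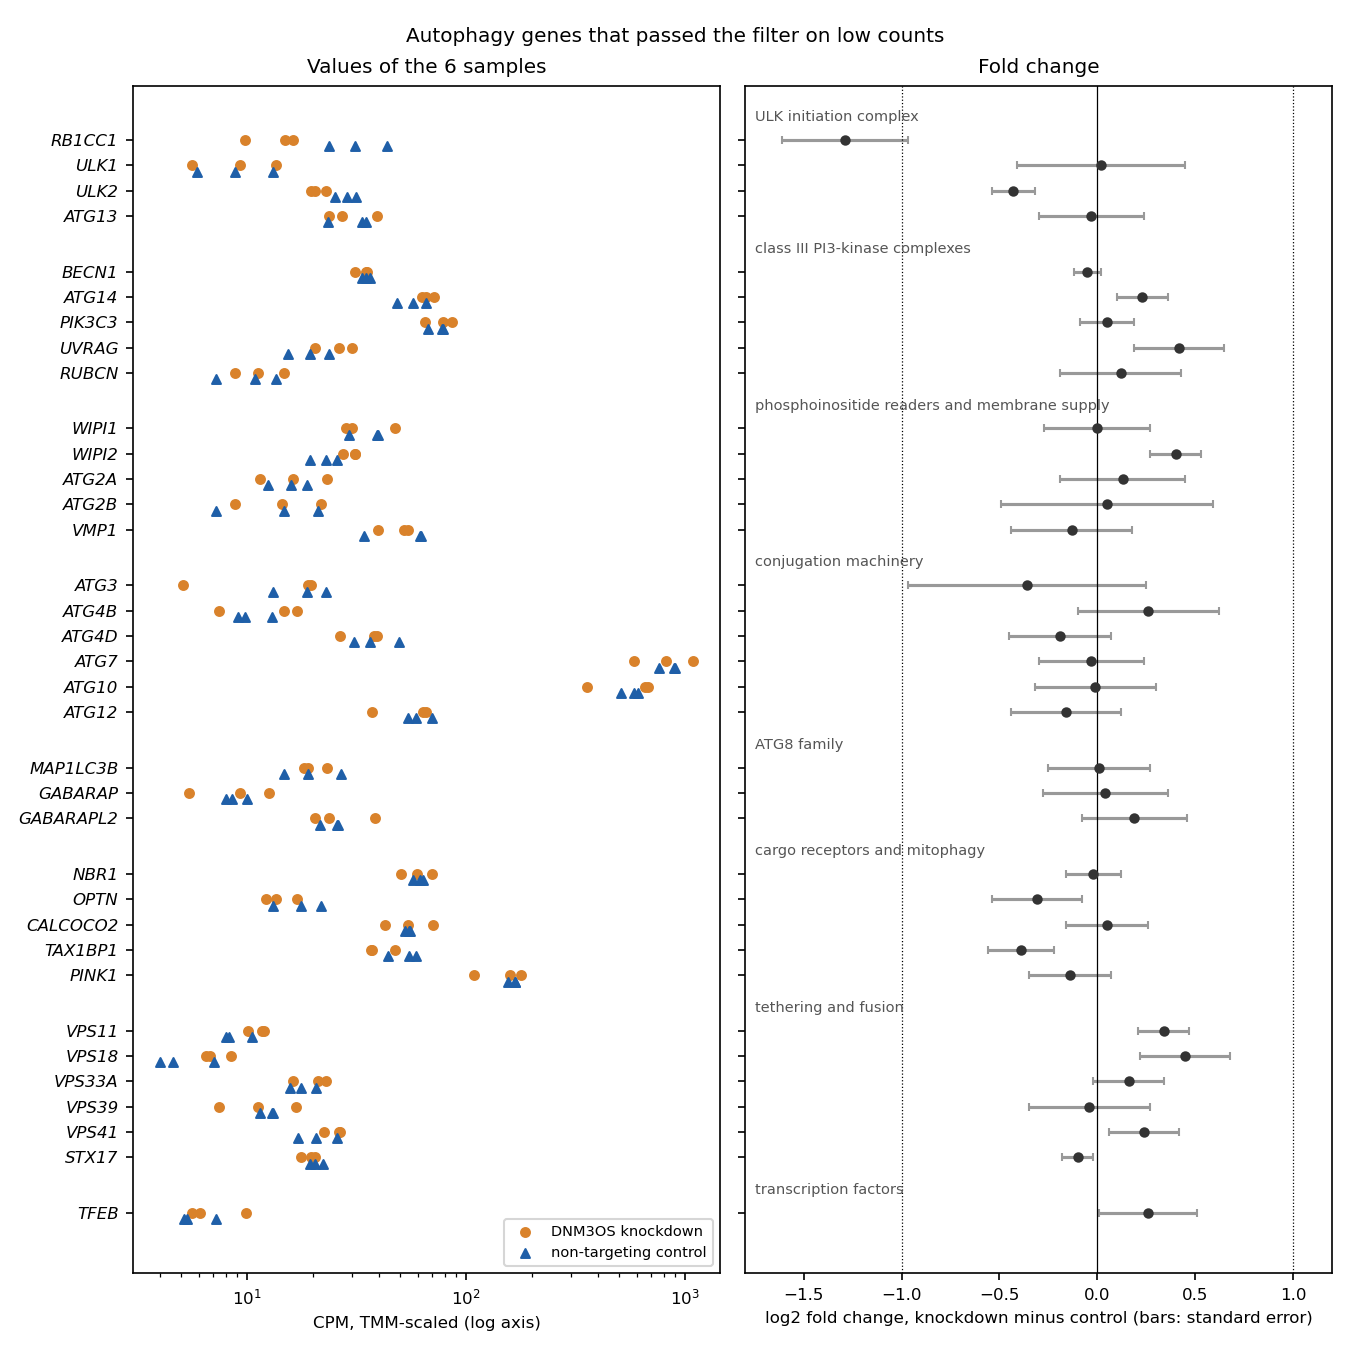
Left, CPM scaled by TMM (log axis) of the 35 tested autophagy genes in each of 3 DNM3OS knockdown samples (orange circles) and 3 non-targeting controls (blue triangles). Right, log2 fold change of knockdown minus control with its standard error, with dotted lines at 2-fold; RB1CC1 at -1.29 is the one gene outside them.

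The ULK initiation complex held the largest fold change among the 35 tested members. RB1CC1 (ENSG00000023287, chromosome 8 of GRCh38 from 52622458 to 52745843, minus strand) encodes FIP200, the scaffold of the complex. It had 9.77, 14.9 and 16.1 CPM with the knockdown and 43.3, 23.6 and 31.2 CPM in controls. All 3 knockdown samples were below the lowest control. The means were 13.6 ± 3.37 CPM (SD, n = 3) and 32.7 ± 9.95 CPM (SD, n = 3), and the log2 fold change, with its standard error (SE), was -1.29 (SE 0.32, exact test of edgeR, adjusted p = 0.496, unadjusted p = 0.000252). It was the 1 tested member with a log2 fold change of -1 or lower, beside 1.48% of tested genes, and by unadjusted p it ranked 6 of the 11814 tested genes. The exact permutation test over the 6 samples gave p = 0.1, the smallest that 3 against 3 allow. Any gene with separated groups reaches that p, as 3.56% of tested genes did in this direction. The RB1CC1 difference did not pass the adjustment over all genes. The control with the least RB1CC1, replicate 2, was also the control with the lowest ribosomal protein share, and the knockdown sample with the least, replicate 1, had the lowest share of all 6. The part of that share in the difference was not tested.

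The RB1CC1 counts were few, at 21, 22 and 23 in the knockdown and 76, 36 and 53 in the controls, and they were split between transcripts. A coding transcript of 551 bases (ENST00000517963) held 42.6% of them, at 15.8, 10.4 and 12.6 counts against 18, 25.5 and 16.1, and these groups did not overlap. The 6614-base transcript ENST00000435644 held 3.1, 0 and 1.6 counts in the knockdown and 32.1, 7.5 and 34.7 in the controls, which did not overlap either. The 6636-base transcript ENST00000025008 held 0.1, 11.6 and 8.9 against 24.2, 2.8 and 0.8, with overlap. With counts rescaled for transcript length, the log2 fold change of the gene was -0.69 (exact test of edgeR, adjusted p = 1), a smaller difference. Over all alternatives its adjusted p lay between 0.0651, from the exact test without non-targeting control replicate 2, and 1.

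ULK2, one of the kinases of the complex, had 22.8, 19.6 and 20.4 CPM in the knockdown and 28.5, 31.4 and 25.3 CPM in controls. The groups did not overlap, but the log2 fold change was -0.43 (SE 0.11) and the exact test of edgeR gave an adjusted p of 1. With counts rescaled for transcript length it was -0.17 and the groups overlapped. A retained intron held 50.8% of its counts and a substrate of nonsense-mediated decay 26.0%. All transcripts not annotated as protein-coding together held 87.0%. ATG13, the regulatory subunit and the member of the class with the highest TPM, had 27, 23.6 and 39.3 CPM against 23.4, 33.4 and 34.7 CPM, with no separation. ULK1, the best studied of the kinases, averaged 9.47 ± 3.95 CPM (SD, n = 3) with knockdown against 9.27 ± 3.62 CPM (SD, n = 3) without. ULK3 and ATG101 were below the filter on low counts. Summed over the 6 genes of the class, levels were 70.2, 77 and 88.4 CPM in the knockdown and 115.1, 96.2 and 105.9 CPM in controls. That separation rested on RB1CC1: the other 5 genes summed to 60.5, 62.1 and 72.3 CPM against 71.8, 72.7 and 74.7 CPM, with overlap. In summed TPM the 6 genes also overlapped, at 191.6, 138.6 and 234.2 against 173.4, 217 and 246.1.

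In the class III PI3-kinase complexes, which make the phosphoinositide on the forming membrane, 5 of 7 genes were tested and 0 were called. UVRAG, which directs the kinase to later maturation steps, had 30.2, 26.3 and 20.4 CPM in the knockdown and 19.4, 23.6 and 15.3 CPM in the controls, with a log2 difference of 0.42 (SE 0.23, exact test of edgeR, adjusted p = 1). One control lay within the knockdown range. BECN1, the core regulatory subunit, was nearly level, at 33.7 ± 2.27 CPM (SD, n = 3) against 34.9 ± 1.54 CPM (SD, n = 3). PIK3R4, the kinase's scaffold, was too low to be tested, with 0, 5 and 4 counts against 12, 6 and 10.

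ATG14, the subunit that brings the kinase to sites of autophagosome formation, showed a different picture by transcript than by gene. As a gene it had 71.6, 65.5 and 63.2 CPM in the knockdown and 48.4, 65.5 and 57.1 CPM in the controls, with a log2 difference of 0.23 (SE 0.13, exact test of edgeR, adjusted p = 1), with overlap. Its coding transcript (ENST00000247178) held 0, 0 and 10.5 counts in the knockdown and 29.3, 13.9 and 28.6 in the controls. Its retained intron (ENST00000558189) held 153.9, 96.6 and 80 counts in the knockdown and 55.4, 85.9 and 68.3 in the controls. The coding transcript was lower in all 3 knockdown samples and the retained intron overlapped. The share of ATG14 counts outside coding transcripts was 96.1% ± 6.7 (SD, n = 3) with knockdown against 74.0% ± 10.8 (SD, n = 3) without, a difference of 22.1 percentage points (exact permutation test, two-sided p = 0.1, adjusted p = 0.3 over the 6 members with more than 100 counts). The transcripts are 4715 and 4689 bases long, and 1047 bases of each lie opposite FBXO34, so how the estimate divided shared reads between them is uncertain.

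NBR1, a cargo receptor, gave similar values in that readout. The share of its counts outside coding transcripts was 89.8%, 80.5% and 88.7% in the knockdown and 62.2%, 80.1% and 67.4% in the controls, a difference of 16.4 percentage points (exact permutation test, two-sided p = 0.1, adjusted p = 0.3). The groups did not overlap, although replicate 2 of the controls was within 1 percentage point of the lowest knockdown sample. For PIK3C3, ATG7, ATG10 and PINK1 the groups overlapped, with differences between -2.7 and 2.9 percentage points and permutation p between 0.2 and 0.9.

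When coding transcripts alone were summed, 25 members passed the filter on low counts. None was called in the exact test on that table, beside 0.0373% of 8048 genes called lower and 0.0249% called higher. RB1CC1, ATG14, NBR1 and TAX1BP1 had an unadjusted p below 0.05 in this table, 4 of 25 beside 3.28% of genes, and all had less in the knockdown. ATG14 passed the filter through its controls, with rounded coding counts of 29, 14 and 29 against 0, 0 and 11 in the knockdown. Its p and its separation here are therefore descriptions and no evidence of a decrease. In each of these 4 genes control replicate 2 had the fewest coding counts of the controls. That sample also had the lowest gene total and the lowest ribosomal protein share (0.320%) of the controls. The part of that share in these 4 decreases was not tested. Of all 25 tested members, 3 were lower without overlap (RB1CC1, ATG14 and TAX1BP1), beside 3.47% of genes, and 0 were higher without overlap, beside 4.46% of genes. The coding counts of TAX1BP1 were 44, 37 and 25 in the knockdown and 62, 42 and 63 in the controls. They overlapped as counts and were separated only after TMM scaling. The log2 fold changes were -1.20 for RB1CC1 (exact test of edgeR, adjusted p = 0.39), -2.47 for ATG14, -1.08 for NBR1 and -0.60 for TAX1BP1 (adjusted p = 1 for each of the latter). The coding counts of NBR1 were 13, 20 and 8 in the knockdown and 42, 17 and 34 in the controls, with control replicate 2 inside the knockdown range. The median of the 25 was 0.127 on the log2 scale, with 15 members above 0, against 0.009 over all genes of that table, so these decreases did not extend to the list.

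**Figure D3:**
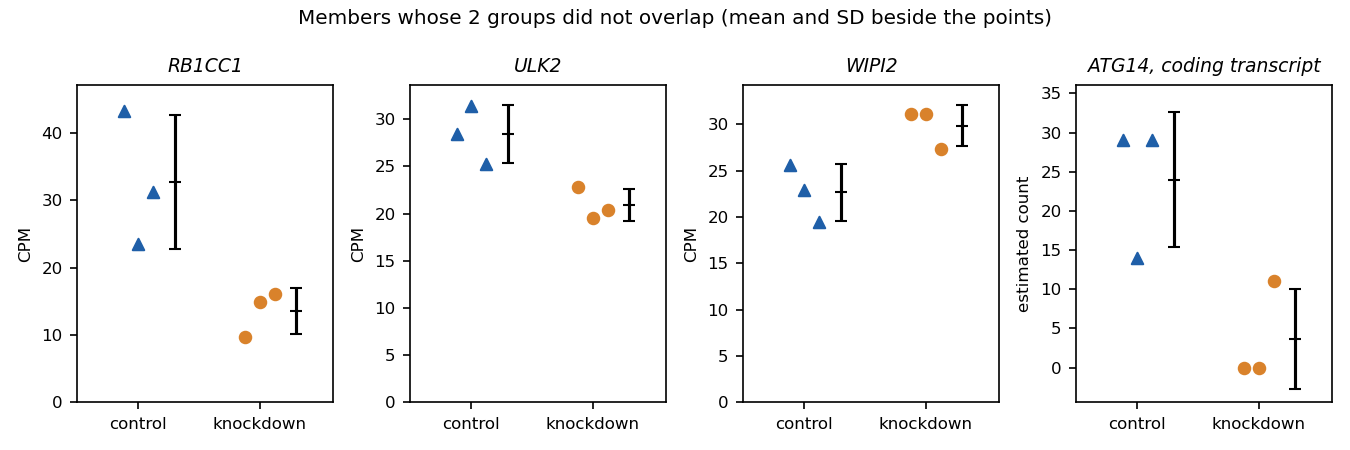
Each point is 1 sample (blue triangles, non-targeting control; orange circles, DNM3OS knockdown), with the mean and SD beside it. The vertical axes give TMM-scaled CPM for RB1CC1, ULK2 and WIPI2 and estimated counts on coding transcripts for ATG14, and in each panel the groups do not overlap. The ATG14 coding counts passed the filter on low counts through the controls.

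Among the phosphoinositide readers and the proteins that supply membrane, WIPI2 was the gene with separated groups. WIPI2 binds the phosphoinositide and recruits ATG16L1. It had 31.2, 31.1 and 27.4 CPM in the knockdown and 25.6, 22.9 and 19.4 CPM in the controls. The log2 fold change was 0.40 (SE 0.13, exact test of edgeR, adjusted p = 1), and the exact permutation p was 0.1. Transcripts that are not protein-coding held 93.2% of its counts. ATG2A, a lipid transfer protein, had 23.3, 11.5 and 16.1 CPM against 18.8, 12.4 and 15.9 CPM. VMP1 had 39.5, 54 and 51.9 CPM against 62.1, 34 and 61.8 CPM. Neither separated the groups, and the scramblase ATG9A was too low to be tested.

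In the conjugation machinery, 6 of 10 genes were tested and 0 were called. ATG10 had 355.8, 678.7 and 653.3 CPM in the knockdown and 509.8, 610.8 and 582.4 CPM in the controls. Replicate 1 of the knockdown was the lowest sample and the other two knockdown samples were the highest, giving a log2 fold change of -0.01 (SE 0.31). ATG7 had 586.5, 816.5 and 1088 CPM against 892.6, 757.5 and 897.1 CPM, again with the lowest and the highest sample in the knockdown. ATG3, the E2-like enzyme for ATG8 proteins, had 5.12, 19.6 and 18.9 CPM against 22.8, 13.1 and 18.8 CPM. Its log2 fold change was -0.36 (SE 0.61, exact test of edgeR, adjusted p = 1) and rested on replicate 1, without which it was 0.083. ATG4B, a protease that trims ATG8 proteins, had 7.44, 16.9 and 14.7 CPM against 9.11, 9.82 and 12.9 CPM. ATG5, ATG16L1, ATG4A and ATG4C were too low to be tested, and ATG5 had 2, 5 and 9 counts in the knockdown and 22, 7 and 9 in the controls.

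The ATG8 family, whose lipid-linked forms coat the autophagosome, showed no separation in CPM. With counts rescaled for transcript length GABARAPL2 was higher in the knockdown without overlap, beside 4.48% of genes. MAP1LC3B had 23.3, 18.2 and 18.9 CPM in the knockdown and 26.8, 19 and 14.7 CPM in the controls, with the same mean of 20.2 CPM. GABARAP had 9.3, 5.4 and 12.6 CPM against 7.97, 8.51 and 10 CPM. GABARAPL2 had 38.1, 23.6 and 20.4 CPM against 25.6, 21.6 and 25.9 CPM, the highest sample being knockdown replicate 1. Transcripts that are not protein-coding held 91.4% of the GABARAPL2 counts and 7.0% of the GABARAP counts. MAP1LC3A and GABARAPL1 were below the filter, with at most 7 and 3 counts in any sample. Close paralogs and pseudogenes of this family can share reads, which adds uncertainty to these values.

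Among the cargo receptors and mitophagy genes, 4 of the 5 tested genes had a log2 fold change below 0. TAX1BP1, a receptor for ubiquitin-tagged cargo, had 36.8, 47.3 and 37.2 CPM in the knockdown and 59.2, 43.9 and 54.7 CPM in the controls. Only control replicate 2 fell within the knockdown range. The log2 fold change was -0.39 (SE 0.17, exact test of edgeR, adjusted p = 1). It was -0.02 with counts rescaled for transcript length. OPTN, a receptor for mitochondria and bacteria, had 13.5, 12.2 and 16.8 CPM against 21.6, 13.1 and 17.6 CPM, with a log2 difference of -0.31 (SE 0.23) with overlap. CALCOCO2 had 70.2, 42.5 and 54 CPM against 52.4, 55 and 55.3 CPM, the knockdown samples lying on either side of the controls. PINK1 averaged 148.3 ± 35.7 CPM (SD, n = 3) against 162.7 ± 6.49 CPM (SD, n = 3).

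In the tethering and fusion class, 4 of the 6 tested genes had a log2 fold change above 0, with a class median of 0.199. VPS11, a core HOPS subunit, had 11.6, 10.1 and 11.9 CPM in the knockdown and 7.97, 10.5 and 8.23 CPM in the controls. VPS18, another core subunit, had 6.51, 6.75 and 8.42 CPM against 3.99, 4.58 and 7.06 CPM. In each of these genes 1 control reached into the knockdown range, and the log2 fold changes were 0.34 (SE 0.13) and 0.45 (SE 0.23) with an adjusted p of 1 in edgeR's exact test. With counts rescaled for transcript length both were higher in the knockdown without overlap, beside 4.48% of genes. They averaged only 16.8 and 10.3 counts per sample. Transcripts that are not protein-coding held 94.9% of the VPS11 counts and 71.9% of the VPS18 counts. STX17 had 20.5, 19.6 and 17.5 CPM against 22.2, 20.3 and 19.4 CPM. VPS16 and EPG5 were too low to be tested. Of the transcription factors that drive lysosomal and autophagy genes, TFEB had 5.58, 6.08 and 9.82 CPM against 5.13, 7.2 and 5.29 CPM, with overlap, and TFE3 was below the filter.

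TFEB and TFE3 bind DNA at an E-box, CACGTG. RefSeq promoter windows (GRCh38.p14, 250 bases before to 50 after the start) matched 41 of the 50 members. The E-box, searched on both strands, was in 5 of them (12.2%), against 7.4% of all 27305 windows. Those 5 were the windows of ATG14, ATG3, ULK3, VPS11 and VPS16. The E-box with a further base before it was in 4 (9.8%), all but ULK3, against 3.8% of all windows. A longer form, with further bases on each side of the E-box, was in 0 of the 41 windows. It was in only 0.4% of all windows, too rare for that 0 to set the members apart. A match is a description of these letters, not of binding.

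In total 15 members were too low to be tested, averaging between 1 and 9 counts per sample with at most 22 in any, and 6 of them were at 0 in at least 1 sample. Without a filter, 1 of the 15, PIK3R4, had an unadjusted p below 0.05 (log2 fold change -1.53, exact test of edgeR, adjusted p = 1). It was the 1 gene among them whose groups did not overlap, beside 3.17% of all genes lower without overlap at that setting. The adjusted p of each of the 15 was 1.

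A further 59 autophagy genes outside the list were read from the same fit. Of these 43 were tested and 0 were called in either direction by edgeR's exact test. In that test 1 had an unadjusted p below 0.05, beside 2.92% of tested genes, as it did in the quasi-likelihood test and in DESeq2. That gene was PHB2, an inner mitochondrial membrane receptor, with 2, 10 and 6 counts in the knockdown and 20, 9 and 26 in the controls (log2 fold change -1.51, SE 0.67, exact test of edgeR, adjusted p = 1) and with overlap between the groups. The median over the 43 was -0.052 on the log2 scale. The knockdown samples were all lower for 2 of them, LAMP1 and CCPG1, beside 3.56% of tested genes. Their log2 fold changes were -0.43 and -0.41. The knockdown samples were all higher for 1, WDR45, at 0.51, beside 4.42% of tested genes. These genes, and PHB2, were named after their values were seen. None of the 14 tested genes of mTORC1 and AMPK control, the kinases that switch the ULK complex off and on, had separated groups. SQSTM1, which encodes the receptor p62, had 95.3, 171.5 and 153 CPM against 152.1, 136.8 and 137.7 CPM, with a log2 difference of -0.03 (SE 0.26). Of its counts, 84.8% lay on transcripts with bases opposite another gene, mainly MRNIP, which itself held between 4262 and 6093 counts per sample.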

How the data were processed

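The authors prepared libraries from total RNA with a stranded kit after ribosomal RNA depletion and quantified paired reads with kallisto 0.43.0 against Ensembl transcripts of GRCh38. The deposited tables hold unnormalized estimated counts and TPM by transcript. A strand option is not given in the sources used here. Samples were grouped by title.

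Of 173259 transcripts, 155518 matched GENCODE 44. Gene values are the rounded sums of their transcripts' estimated counts. Genes were filtered with filterByExpr (minimum count 10), normalized by TMM and compared with the exact test of edgeR 4.0.16 (R 4.3.3) with Benjamini-Hochberg adjustment over all tested genes. Standard errors come from log2 CPM (prior count 2). Permutation tests were exact, two-sided, over the 20 assignments. The test was checked on simulated counts, with large changes given only to genes above a CPM limit. That check does not cover smaller changes or members with lower counts. Exon overlap with the opposite strand was computed from the annotation. The 3-count floors cover counting error only.

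The gene lists were chosen with earlier results of these data known. Values per sample are given for members whose groups did not overlap, the 2 largest fold changes and the highest TPM of each class, and further members were named after their values were seen. Alternatives were the quasi-likelihood fit of edgeR (also blocked on replicate number), DESeq2 1.42.0, other normalizations, filters and counts, and each sample left out. Replicates of a group differed by more than sampling noise (chi-square per degree of freedom at least 2.12).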

Additional observations from a re-analysis of the deposited data

Results flagged for a closer look

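Transcripts of the files outside GENCODE 44 took from 4.78% up to 6.38% of the counts in a library, above the limit that a count of 0 allows. They carry no gene name here and were not used for any autophagy gene.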

How the results depend on the processing

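No member and no other autophagy gene was called under any alternative. The number of all genes called lower was 1 in the exact test, 0 in quasi-likelihood fits, 0 when these carried a replicate block, 0 with DESeq2, 2 without a filter, 2 with a 1 CPM filter, 4 with length-scaled TPM counts and 3 with coding transcripts only. The last pair of settings called 2 and 2 genes higher, against 0. Leaving out single samples gave 0 (without control replicate 3) to 3 (without knockdown replicate 3) genes lower and 0 to 1 higher. Members with separated groups numbered 2 lower and 1 higher. They numbered 3 lower without a filter (3.17% of genes) and 3 with a 1 CPM filter (4.0%), where PIK3R4 joined. With length-scaled TPM counts 2 were lower (RB1CC1 and NBR1, 3.99% of genes) and 4 higher (GABARAPL2, VPS11, VPS18 and WIPI2, 4.48%). With coding transcripts 3 were lower (3.47%) and 0 higher (4.46%). Leaving out a sample gave 2 to 5 lower and 2 to 5 higher. The 5 and 5 came without non-targeting control replicate 2, where 1880 and 1608 of 12544 genes separated. Without knockdown replicate 1, 4 were higher (10.5% of genes), and without knockdown replicate 2, 3 (9.73%).

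Of 21 members followed through the alternatives, 9 kept their sign in each alternative that gave a value. For 5 of these (RB1CC1, UVRAG, TAX1BP1, OPTN and STX17) that included coding transcripts only, where ULK2, WIPI2, VPS11 and VPS18, the remaining 4, were too low to be tested. VPS18 averaged 1.67 coding counts in the knockdown against 4 in controls, opposite to its 0.45. In all, 28 of 329 values reversed. With coding transcripts only, the log2 fold change was 0.084 for ATG13, -2.47 for ATG14, 0.19 for VMP1 and 0.46 for ATG10. With length-scaled TPM counts it was 0.24 for VMP1, -0.23 for ATG4B, -0.27 for GABARAP, -0.054 for MAP1LC3B and -0.022 for CALCOCO2, and without a change of sign -0.17 for ULK2, -0.02 for TAX1BP1, 0.26 for UVRAG, 0.80 for VPS18 and 0.58 for VPS11. DESeq2 gave -0.0023 for MAP1LC3B. The cause was not tested.

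Leaving out single samples moved ATG13 from -0.26 to 0.11, ATG2A from -0.18 to 0.34, VMP1 from -0.35 to 0.017, ATG3 from -0.65 to 0.083, ATG10 from -0.18 to 0.24, GABARAPL2 from -0.14 to 0.36, GABARAP from -0.22 to 0.29, MAP1LC3B from -0.19 to 0.27, CALCOCO2 from -0.16 to 0.21 and TFEB from -0.0066 to 0.45. The difference in PINK1's non-coding share moved from -2.4 to 4.2 percentage points. RB1CC1 stayed between -1.47 and -1.04.

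The replicate numbers are shared by the groups in the titles, but deviations of same-numbered samples correlated between -0.396 and 0.233, so they were not taken as pairs. With the replicate block, RB1CC1 was -1.26 (adjusted p = 0.999 from edgeR's quasi-likelihood test). Depth limits all of this, since most members had fewer than 50 counts.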
